A study of Homo sapiens with 12 samples.

Results

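Replication-dependent histone genes encode the bulk of the histone proteins that package newly made DNA. They were followed here on the 51 probe sets of an Affymetrix U133 Plus 2.0 array, out of 54675, whose platform annotation names 1 gene with a symbol of the H1-1 to H1-6, H2AC, H2BC, H3C or H4C series. A probe set is a group of short probes read as 1 value. The 51 probe sets name 45 genes, of which 42 lie on chromosome 6, 2 on chromosome 1 and 1 on chromosome 21 in RefSeq's GRCh38.p14 gene table. By family they comprise 7 probe sets for linker histone H1 (6 genes), 11 for H2A (9 genes), 15 for H2B (14 genes), 8 for H3 (7 genes) and 10 for H4 (9 genes). The gene table lists H2AC5P and H4C10P, counted here among the H2A and H4 genes, as pseudogenes. The rule used gene names and no measured value, but the members were chosen with earlier results of these data known.

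The arrays came from 22Rv1, an established human prostate carcinoma line, grown in RPMI-1640 with serum. The groups were 4 h, 6 h and 16 h with a small-molecule inhibitor, which the series title describes as directed at the transcription factor ONECUT2, and vehicle, with 3 arrays each. No dose is given, no time is stated for vehicle, and a code element found in the other 9 array titles is missing from the 3 titles at 16 h. In comparisons with the 16 h arrays, compound, time in culture and whatever that element stands for therefore cannot be told apart. The labels do not say that the arrays of a group came from separate cultures, and the p-values below therefore cover only array-to-array spread, possibly technical.

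Most messenger RNAs end in a poly(A) tail. The messages of these histone genes are the known exception: they lack introns, end in a short stem-loop bound by the protein SLBP, and accumulate mainly in S phase, when DNA is copied. Several of the genes, among them H2BC21 (formerly HIST2H2BE) and H2BC12 (formerly HIST1H2BK), also carry a polyadenylation signal further downstream and can yield polyadenylated messages. The array protocol copies RNA from a poly(A) tail, so the values below are read mainly as polyadenylated histone RNA. RNA without a tail is not wholly missed, since ribosomal RNA controls gave a signal on these arrays (values further below), and the share of stem-loop RNA in the histone values was not tested. The arrays read whole cultures, in which fewer cells making a message and less of it per cell cannot be told apart.

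Clustered histone genes share short promoter elements, and the promoters of the 3 genes with the largest rises and of the 2 that fell are shown for comparison. Each runs 5′ to 3′ on the gene's strand from 250 bases before to 50 bases after the annotated start, as given by RefSeq on GRCh38.p14. H2BC12 lies at chr6:27146809-27147108 (minus strand), H2BC21 at chr1:149886633-149886932 (minus), H2AC6 at chr6:26123922-26124221 (plus), H1-2 at chr6:26056421-26056720 (minus) and H2AC14 at chr6:27814728-27815027 (minus). Capitals mark exact matches to the TATA box (TATAAA), the CCAAT box (CCAAT), the octamer bound by Oct-1 (ATTTGCAT) and the cyclic AMP response element (TGACGTCA). Matches were taken on either strand and anywhere in the window, so a marked match need not be a working element. Other forms were not marked, such as the tatatata in the H1-2 promoter.
H2AC6: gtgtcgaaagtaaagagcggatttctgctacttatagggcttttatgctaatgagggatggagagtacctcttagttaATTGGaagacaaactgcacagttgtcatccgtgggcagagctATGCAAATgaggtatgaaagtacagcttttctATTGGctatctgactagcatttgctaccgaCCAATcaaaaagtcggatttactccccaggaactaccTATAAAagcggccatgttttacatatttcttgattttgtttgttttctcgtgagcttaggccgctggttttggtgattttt
H2BC21: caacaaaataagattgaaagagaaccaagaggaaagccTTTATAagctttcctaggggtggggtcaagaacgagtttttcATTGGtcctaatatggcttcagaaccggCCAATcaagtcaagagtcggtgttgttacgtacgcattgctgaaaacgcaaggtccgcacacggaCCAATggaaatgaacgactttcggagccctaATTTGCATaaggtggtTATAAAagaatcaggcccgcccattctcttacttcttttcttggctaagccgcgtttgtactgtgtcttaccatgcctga
H2BC12: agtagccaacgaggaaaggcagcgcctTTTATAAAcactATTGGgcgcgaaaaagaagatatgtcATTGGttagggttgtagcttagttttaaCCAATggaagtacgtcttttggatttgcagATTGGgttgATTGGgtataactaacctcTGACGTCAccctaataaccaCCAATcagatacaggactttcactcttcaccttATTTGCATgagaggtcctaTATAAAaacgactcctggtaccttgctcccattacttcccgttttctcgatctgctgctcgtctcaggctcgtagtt
H2AC14: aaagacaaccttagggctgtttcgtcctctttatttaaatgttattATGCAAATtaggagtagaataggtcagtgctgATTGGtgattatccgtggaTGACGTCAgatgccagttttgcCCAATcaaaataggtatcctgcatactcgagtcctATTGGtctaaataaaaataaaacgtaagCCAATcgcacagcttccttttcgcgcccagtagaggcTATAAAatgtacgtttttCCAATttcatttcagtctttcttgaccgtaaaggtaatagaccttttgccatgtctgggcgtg
H1-2: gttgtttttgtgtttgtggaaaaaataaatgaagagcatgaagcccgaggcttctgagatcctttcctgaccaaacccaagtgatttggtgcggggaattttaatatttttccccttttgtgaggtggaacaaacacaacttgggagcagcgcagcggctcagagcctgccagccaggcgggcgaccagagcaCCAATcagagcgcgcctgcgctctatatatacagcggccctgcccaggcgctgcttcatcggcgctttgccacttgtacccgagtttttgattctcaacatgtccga
In the H2BC12 promoter the first run of capitals holds TATAAA on both strands, which overlap.

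RefSeq promoters were matched for 40 of the 45 genes, and no promoter is shown for H2AC5P, H2BC12L, H3C11, H4C1 or H4C10P. The octamer was in 16 of the 40, against 1.77% of all 35116 promoters of the same length. It stood in 10 of 13 H2B promoters and 6 of 8 H2A promoters, and in none of the 6 H1, 6 H3 or 7 H4 promoters. TATAAA was in 27 of the 40 (11.5% of all promoters), CCAAT in 35 (34.6%) and TGACGTCA in 7 (1.85%). CCAAT was in every H1, H2A, H2B and H3 promoter matched, and in 2 of 7 H4 promoters. Among the 8 matched genes that rose at 16 h, 4 held the octamer and 5 held TATAAA. Among the 2 that fell, 1 held each, and among the other 30 genes 11 held the octamer and 21 held TATAAA. Only 13 of the 40 matched genes were bright enough to test, so most of the other 30 had no measured change. They are not a group shown to be unchanged. The octamer thus followed the histone family, and both H2AC6, which rose, and H2AC14, which fell, carry the octamer, CCAAT and TATAAA. A match describes letters in this window and not bound protein.

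Few of the 51 probe sets gave a signal on these arrays. Only 12 exceeded, on all 12 arrays, the highest of 27 unspiked bacterial control probe sets of the same array, a level that averaged 2.14 log2 units on vehicle arrays and 1.94 at 16 h. A further 20 exceeded it on no array. A probe set was tested where its mean over the 12 arrays reached 2.11, the median over all probe sets, and 16 of the 51 did so. They name 14 genes: 1 probe set for H1, 4 for H2A, 7 for H2B, 1 for H3 and 3 for H4. None of the 16 would have missed that level without the 16 h arrays. Of the 16, 3 have names ending in _s_at and 6 in _x_at, classes whose probes can bind transcripts of several related genes, so their signal may be shared with near-identical histone copies.

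At 16 h 7 of the 11 tested H2A and H2B probe sets gave a higher signal than with vehicle, led by H2AC6 at 3.52-fold, H2BC21 at 2.4-fold and H2BC12 at 1.96-fold. H2AC14 and the linker histone gene H1-2 gave a lower one. At 4 h and 6 h no member passed the test. Changes are log2 differences from 1 limma model of all 12 arrays and 27306 probe sets, and a probe set is said to have risen, fallen or changed where its Benjamini-Hochberg adjusted p is below 0.05. Of the 16 tested, 11 changed, against 39.7% of all tested probe sets: 9 rose, against 23.0% of all, and 2 fell, against 16.7%. The other 5 did not pass. Over all 16 the median log2 change was 0.47, beside 0.04 over all tested probe sets. RNA controls and many other genes also moved at 16 h, with values given further below, and their part in these changes was not tested.

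**Figure D1:**
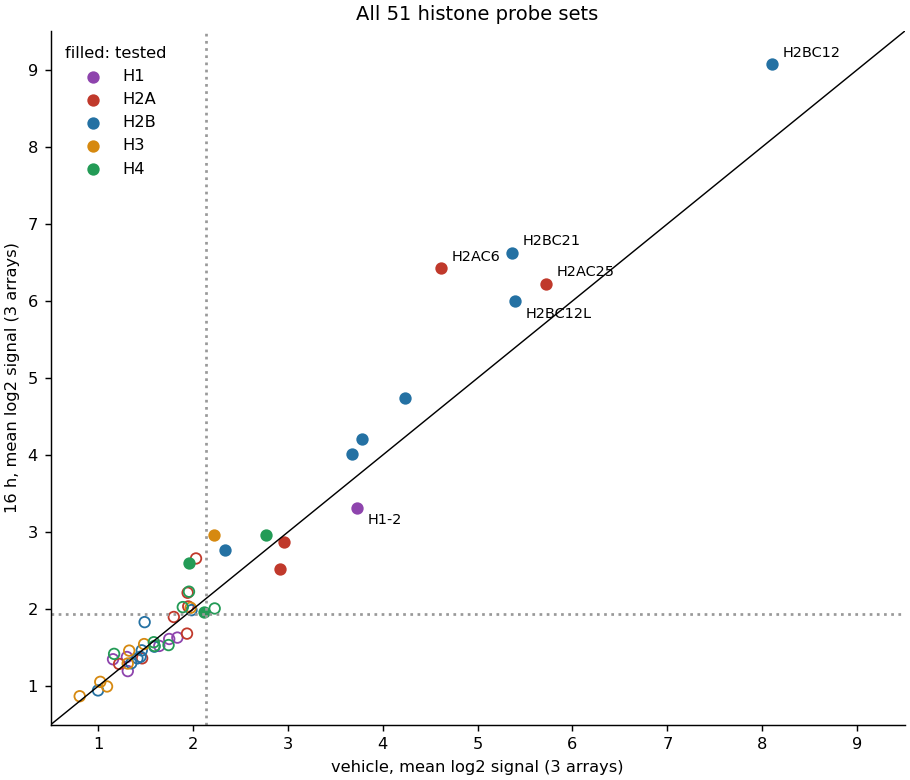
Mean log2 signal of each of the 51 probe sets at 16 h (vertical axis) and with vehicle (horizontal axis), 3 arrays each, coloured by histone family, with filled points for the 16 tested probe sets. The diagonal marks equal signal and the dotted lines the control level (1.94 at 16 h, 2.14 with vehicle): H2AC6, H2BC21 and H2BC12 lie furthest above the diagonal, H1-2 lies below it, and most open points sit under both lines.

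H2A and H2B pair in the nucleosome core. H2AC6 (HIST1H2AC, probe set 215071_s_at) had log2 signals of 6.21, 6.55 and 6.52 on the 16 h arrays, against 4.47, 4.40 and 4.96 on the vehicle arrays. At 4 h it had 4.10, 4.75 and 4.46, and at 6 h 4.51, 4.57 and 4.62. Every 16 h array therefore lay above every other array, while the 4 h and 6 h values fell within or near the vehicle range. The rise at 16 h was 1.82 ± 0.17 (SE, n = 3 each) on the log2 scale, with a 95% interval of 1.44 to 2.20 and limma adjusted p = 1.21e-05. Against vehicle it differed by -0.17 at 4 h (interval -0.56 to 0.21) and by -0.04 at 6 h (interval -0.43 to 0.34). In the gene table H2AC6 lies between H2BC4 and H1-4. The probe set of H2BC4, 236193_at, was not tested: it averaged 1.83 at 16 h and 1.49 with vehicle, below the control level on every vehicle array.

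H2AC25 (probe set 221582_at), an H2A gene on chromosome 1, had 6.20, 6.24 and 6.23 at 16 h, against 5.62, 5.74 and 5.81 with vehicle. Its 3 arrays at 16 h lay close together and above all others. The rise was smaller than that of H2AC6, at 0.50 ± 0.09 (1.42-fold, limma adjusted p = 0.00097). A second H2AC25 probe set, 231681_x_at, was too dim to test, with 2.21 at 16 h and 1.94 with vehicle. H2AC14 (208583_x_at) was lower: 2.55, 2.43 and 2.57 at 16 h, against 2.78, 3.03 and 2.94 with vehicle. The arrays did not overlap, and its fall of 1.32-fold, a log2 change of -0.40 ± 0.08, had adjusted p = 0.00273. H2AC17 (214481_at) differed by -0.08 at 16 h, with an interval of -0.49 to 0.33 and adjusted p = 0.762. Its sign turned without vehicle replicate 3, to 0.059, and without 16 h replicate 1, to 0.029, in neither case past the test.

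Of the 7 tested H2B probe sets 5 rose at 16 h (23.0% of all tested probe sets did) and none fell (16.7%). H2BC12 (209806_at), the member with the highest mean signal, had 8.95, 9.10 and 9.17 at 16 h, against 7.99, 8.09 and 8.22 with vehicle. At 4 h it had 8.13, 8.17 and 8.17, and at 6 h 8.16, 8.21 and 8.17, so the early arrays lay within the vehicle range and the 16 h arrays lay apart. The rise at 16 h was 0.97 ± 0.08, with an interval of 0.80 to 1.14 and limma adjusted p = 3.19e-06. The intervals were -0.11 to 0.23 at 4 h and -0.09 to 0.25 at 6 h. The name of this probe set ends in neither _s_at nor _x_at.

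H2BC21 (202708_s_at), an H2B gene on chromosome 1 that lies between H3C15 and H2AC20, had 6.60, 6.59 and 6.70 at 16 h, against 5.34, 5.18 and 5.58 with vehicle. It had 5.21, 5.04 and 5.45 at 4 h and 5.47, 5.49 and 5.06 at 6 h. The 16 h arrays were again above all 9 others, and the rise was 1.26 ± 0.14, with an interval of 0.96 to 1.57 and limma adjusted p = 3.55e-05. H2BC12L (208579_x_at), the H2B gene on chromosome 21, had 5.79, 6.13 and 6.06 at 16 h, against 5.45, 5.31 and 5.42 with vehicle, a rise of 0.60 ± 0.11 (1.52-fold, adjusted p = 0.00123). Its early values went both ways. They were 4.88, 5.24 and 5.15 at 4 h, all below vehicle, and 5.53, 5.71 and 5.65 at 6 h, all above it. Neither difference passed the test, with adjusted p = 0.315 at 4 h and 0.453 at 6 h.

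**Figure D2:**
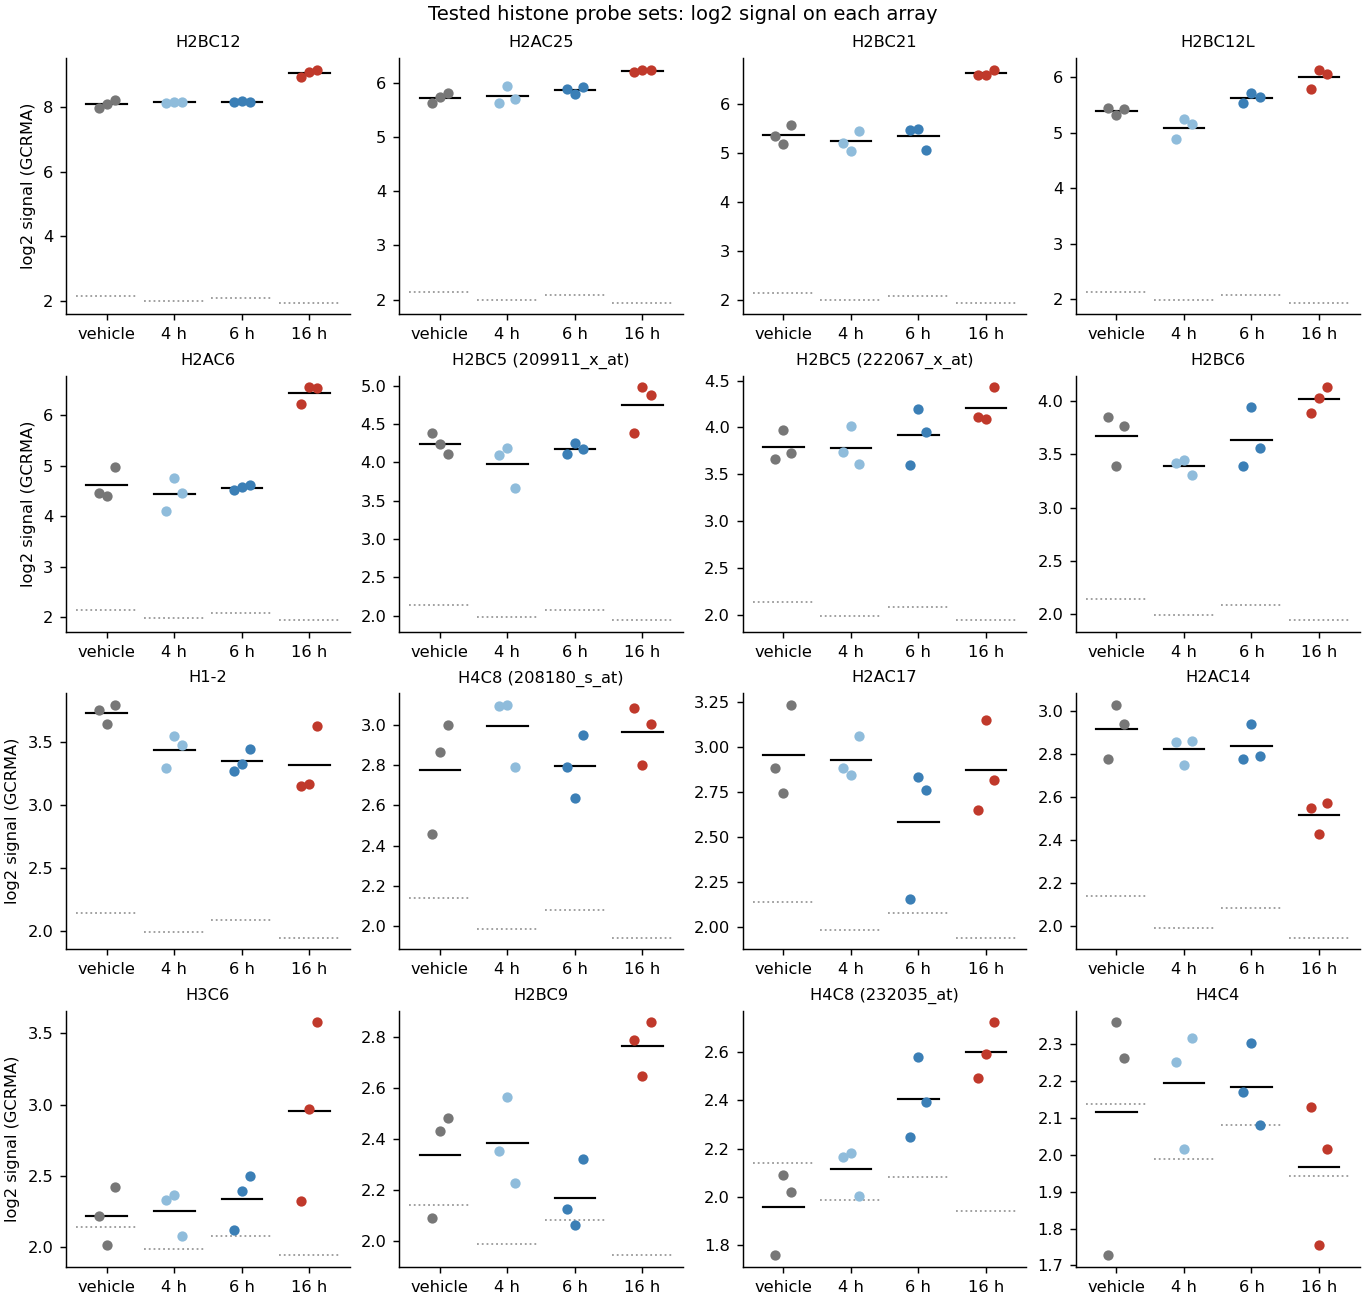
Log2 signal of the 16 tested probe sets, 1 panel each with its own scale, on the 3 arrays (points) of vehicle, 4 h, 6 h and 16 h from left to right, with bars at group means and dotted lines at each group's control level. H2AC6, H2BC21 and H2BC12 stay near the vehicle level at 4 h and 6 h and stand apart at 16 h, while H1-2 averages 3.44, 3.34 and 3.31 at the 3 times, below its vehicle mean of 3.73.

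The remaining H2B probe sets are, like that of H2BC12L, of the _x_at class. Each lost its call when certain arrays were left out, or missed the test. H2BC9 (208546_x_at) had 2.79, 2.65 and 2.86 at 16 h, against 2.09, 2.43 and 2.48 with vehicle, a rise of 0.43 ± 0.12 (1.35-fold, limma adjusted p = 0.0152). The adjusted p became 0.0634 without vehicle replicate 1 and 0.0544 without 16 h replicate 3. H2BC5 (HIST1H2BD) has a pair of probe sets, both of the _x_at class. On 209911_x_at it had 4.38, 4.98 and 4.88 at 16 h, against 4.38, 4.23 and 4.10 with vehicle. The groups touched at 4.38, and the rise of 0.51 ± 0.16 (1.42-fold) had adjusted p = 0.0274. That call was lost without vehicle replicate 2 (0.0612) or 3 (0.0896), without 16 h replicate 2 (0.110) or 3 (0.0911), and after quantile normalisation (0.0524). On 222067_x_at the values were 4.11, 4.09 and 4.43 at 16 h, against 3.66, 3.97 and 3.73 with vehicle. The difference of 0.42 ± 0.16 missed the threshold at adjusted p = 0.0522. The 16 h arrays lay above the vehicle arrays, as they did on 7642 of the 27306 tested probe sets. Both probe sets of H2BC5 were thus higher on average with unequal calls, and as _x_at sets they may read the same related copies. H2BC6 (208527_x_at) differed by 0.35 ± 0.15 from vehicle at 16 h (adjusted p = 0.082), and passed the test only against 4 h, at 0.62 higher (adjusted p = 0.00624).

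H3 and H4 form the tetramer at the centre of the nucleosome, and only 4 of their 18 probe sets with 1 gene symbol were bright enough to test. H3C6 (236278_at) was the only H3 probe set tested. It had 2.32, 2.97 and 3.58 at 16 h, against 2.22, 2.01 and 2.42 with vehicle, so the groups overlapped and the 16 h arrays spread widely. The change of 0.74 ± 0.24 (1.67-fold) had limma adjusted p = 0.0306, which became 0.0696 or 0.0964 without vehicle replicate 1 or 2, 0.0725 or 0.110 without 16 h replicate 2 or 3, and 0.0787 with only these 6 arrays fitted. It lies outside the rule for named members and is given as the only H3 value. The other H3C6 probe set, 214616_at, was too dim to test and averaged 2.02 at 16 h and 1.98 with vehicle.

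H4C8 (HIST1H4H) has a pair of tested probe sets that gave unequal calls. On 232035_at it had 2.49, 2.59 and 2.72 at 16 h, against 1.76, 2.09 and 2.02 with vehicle. No vehicle array exceeded the control level, so the rise is given as at least 1.38-fold. This bound sets the mean at 16 h over the mean of the highest unspiked control of the vehicle arrays. The limma adjusted p = 0.000802 belongs to the log2 difference of 0.65 between the values as read and does not test the bound. At 6 h the same probe set had 2.25, 2.58 and 2.39, all above the vehicle arrays, and the difference did not pass (adjusted p = 0.0906). On 208180_s_at H4C8 had 3.08, 2.80 and 3.01 at 16 h, against 2.46, 2.86 and 3.00 with vehicle, a difference of 0.19 with an interval of -0.13 to 0.51. H4C4 (208076_at) differed by -0.15 (interval -0.49 to 0.19). Both genes are also among the 14 H4 genes of 205967_at, a far brighter probe set with several symbols. It went down, from a mean of 11.70 with vehicle to 11.16 at 16 h (further below).

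Linker histone H1 binds the DNA between nucleosomes. Only H1-2 (HIST1H1C, 209398_at) was tested, and it was the other member to fall at 16 h. It had 3.15, 3.17 and 3.62 at 16 h, against 3.75, 3.64 and 3.79 with vehicle, and the arrays did not overlap. It was also below every vehicle array at 4 h, with 3.29, 3.54 and 3.48, and at 6 h, with 3.27, 3.32 and 3.44. The log2 change was -0.29 ± 0.12 at 4 h (limma adjusted p = 0.388), -0.38 ± 0.12 at 6 h (adjusted p = 0.197) and -0.41 ± 0.12 at 16 h (adjusted p = 0.0181). The 3 comparisons share the vehicle arrays. The 16 h value differed from the 6 h value by -0.03 (adjusted p = 0.868). The call at 16 h was lost on leaving out 1 of 4 arrays, with adjusted p = 0.0502 or 0.0566 without vehicle replicate 1 or 3, and 0.0679 or 0.0738 without 16 h replicate 1 or 2. It was also lost where only the 16 h and vehicle arrays were fitted (0.0513).

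Early times gave no call among the members. At 4 h, 0 of 16 changed (0.293% of all tested probe sets did) in limma, and 2 had an unadjusted p below 0.05 (11.4% of all tested), H1-2 and H2BC12L. At 6 h, 0 of 16 changed (0.681% of all tested), and 2 had an unadjusted p below 0.05 (11.6%), H1-2 and H4C8 on 232035_at. Apart from 232035_at, whose vehicle arrays were at the control level, changes ran from -0.30 to 0.22 at 4 h and from -0.38 to 0.24 at 6 h. Nor did any member differ between 6 h and 4 h (0.0183% of all tested did), where 2 had an unadjusted p below 0.05 (8.58%) and the lowest adjusted p was 0.235.

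The later arrays differed from the early ones directly. Against 6 h, 7 of the 16 were higher at 16 h (23.7% of all tested) and 1 was lower (14.7%). Against 4 h, 10 were higher (22.0%) and 1 was lower (14.3%). H2AC6 was higher at 16 h by 1.86 ± 0.17 than at 6 h (limma adjusted p = 1.14e-05) and by 1.99 than at 4 h (adjusted p = 7.97e-06). H2BC21 was higher by 1.29 than at 6 h and by 1.39 than at 4 h, and H2BC12 by 0.89 and 0.92. H2AC14 was the member that was lower, by -0.32 against 6 h and -0.31 against 4 h. H4C8 on 232035_at was higher than at 4 h by 0.49 (adjusted p = 0.00544) and did not pass against 6 h, where it differed by 0.19 (adjusted p = 0.194).

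**Figure D3:**
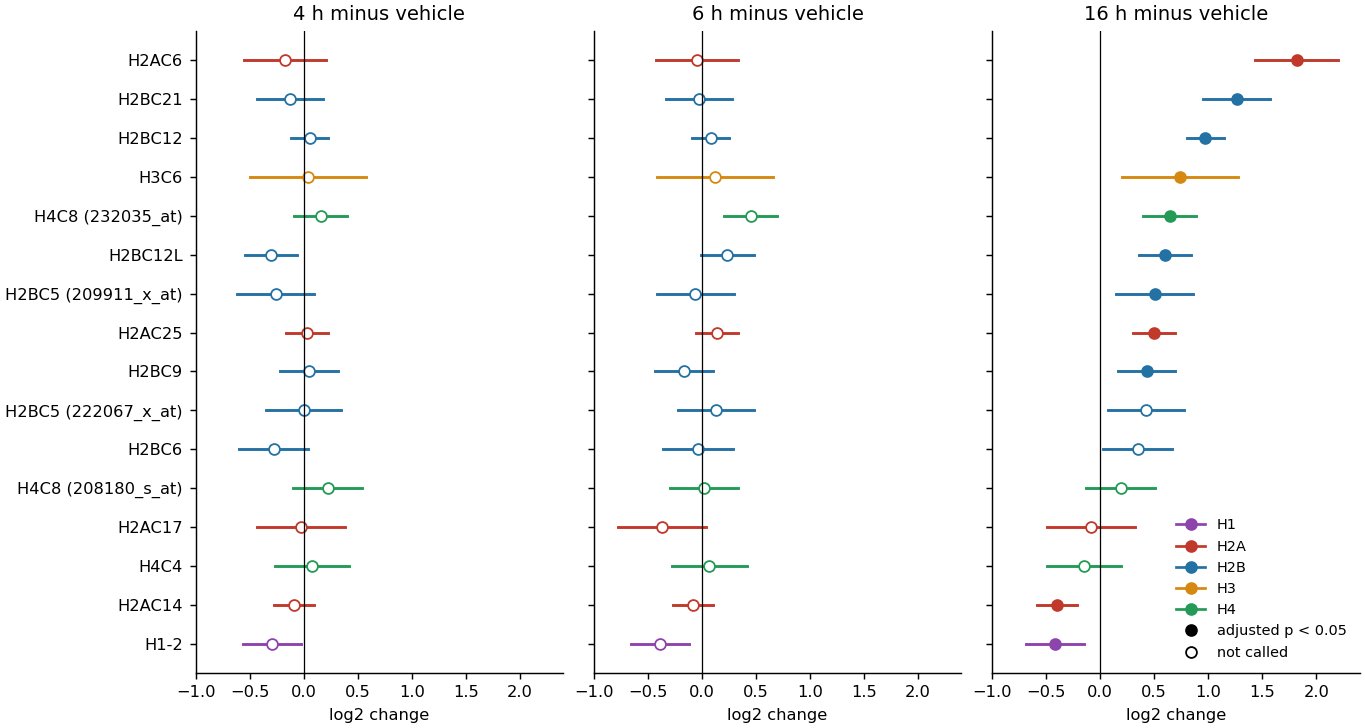
Log2 change from vehicle (points, filled where the adjusted p is below 0.05) with 95% intervals (bars) for the 16 tested probe sets at 4 h, 6 h and 16 h, ordered by the change at 16 h. All points at 4 h and 6 h are open, and the intervals of H2AC6 (1.44 to 2.20), H2BC21 (0.96 to 1.57) and H2BC12 (0.80 to 1.14) at 16 h lie furthest above 0.

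The 35 untested probe sets had means over the 12 arrays of 0.87 to 2.09 and were near or below the control level. No vehicle array exceeded the control level on 32 of them, and all 3 arrays at 16 h did on 4: H2AC15 (239041_at), H4C5 (206951_at), H3C6 (214616_at) and H2AC25 (231681_x_at). No change is given for the rest. The untested probe sets include every member probe set of H1-1, H1-3, H1-4, H1-5 and H1-6, so for linker histones other than H1-2 no change could be measured. When all 54613 non-control probe sets were fitted without the filter, a pair of them was also called. H2AC15 on 239041_at was at least 1.43-fold higher at 16 h (2.66, against 2.03 with vehicle, adjusted p = 0.000528), and H4C5 on 206951_at at least 1.06-fold higher (2.23, against 1.96 with vehicle, adjusted p = 0.0402). Their adjusted p values belong to log2 differences of 0.63 and 0.27 between the values as read, not to these bounds. H4C5 is also among the 14 genes of 205967_at, a far brighter H4 probe set that was lower at 16 h (values below). The second H2AC15 probe set, 214644_at, averaged 1.36 at 16 h and 1.46 with vehicle.

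A further 20 probe sets carry several symbols of the same histone families and so cannot be given to 1 gene. Of the 10 tested, 5 rose (23.0% of all tested probe sets did) and 1 fell (16.7%) at 16 h. In limma 0 changed at 4 h (0.293%), with 0 at an unadjusted p below 0.05, and 0 at 6 h (0.681%), with 1. The brightest, 205967_at, is annotated to 14 H4 genes and had 11.46, 11.17 and 10.86 at 16 h, against 11.80, 11.67 and 11.62 with vehicle. Its 16 h arrays lay below the vehicle arrays, and the fall of 1.45-fold (log2 change of -0.53 ± 0.12) had limma adjusted p = 0.00431. An H3 probe set annotated to 10 genes, 206110_at, had 5.08, 5.31 and 5.38 at 16 h, against 3.54, 3.90 and 4.25 with vehicle, a rise of 1.36 ± 0.21 (2.56-fold, adjusted p = 0.000438). An H2A probe set annotated to 6 genes, 207156_at, rose 1.84-fold (0.88 ± 0.15, adjusted p = 0.00078). Another tested probe set of the same 6 genes, 214542_x_at, went the other way, by -0.22, and did not pass (limma adjusted p = 0.0708). Its 16 h arrays lay below the vehicle arrays. H2AC18 and H2AC19, a duplicated pair of H2A genes, share 214290_s_at and 218280_x_at, which rose by 0.43 and 0.44 (adjusted p = 0.00694 and 0.00689). The other riser was 208490_x_at, annotated to 5 H2B genes, at 0.41 (adjusted p = 0.00651), while 2 more probe sets of the same 5 genes did not pass. Signals shared among copies thus moved in both directions.

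Genes of the proteins that make, process and carry histones were read beside the members, each gene on its probe set with the highest mean. Lists and members were chosen with earlier results of these data known. For transcription, 3′ processing and decay of histone RNA, 37 of 41 listed genes were on the array with a probe set of their own and 36 were tested. At 16 h 9 rose (24.7% of all tested genes did) and 5 fell (15.9%), with a median log2 change of 0.17, beside 0.05 over all tested genes. SLBP, the stem-loop binding protein, averaged 10.42 ± 0.03 at 16 h and 10.87 ± 0.06 with vehicle (SD, n = 3 each), a fall of 1.36-fold (limma adjusted p = 0.000323). Cyclin E2 (CCNE2), a partner of CDK2 at the start of S phase, fell 1.53-fold. HINFP, a transcription factor of H4 genes, rose 1.49-fold, PCF11, which acts in cleavage of polyadenylated messages, 2.12-fold, ZFC3H1, which takes part in nuclear decay of polyadenylated RNA, 1.57-fold, and the RNA helicase gene UPF1 1.3-fold. NPAT, a coactivator of histone genes, differed by 0.16 (adjusted p = 0.337). The shares of this list that rose and fell were close to those of all genes.

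Of 24 genes for histone chaperones and deposition, all tested, 1 rose (24.7% of all tested genes did) and 15 fell (15.9%) at 16 h, with a median of -0.28. The H3.3 deposition genes UBN1 and HIRA fell 3.56-fold and 2.85-fold, the H3-H4 chaperone genes ASF1B and NASP 2.32-fold and 1.68-fold, and HJURP, the chaperone gene of centromeric H3, 1.59-fold. ASF1A, the relative of ASF1B, rose 1.48-fold (limma adjusted p = 0.000772). UBN1, HIRA, NASP and ASF1A were each read on a probe set of the _s_at class. The H3.3 deposition genes DAXX and ATRX differed by -0.28 and -0.05 and did not pass. UBN1 already differed from vehicle by -1.11 at 6 h, which did not pass (limma adjusted p = 0.0959). Replication-independent and variant histone genes, whose messages are polyadenylated as a rule, were measured for 9 of 12 listed. Beside the same shares of all genes, none rose and 5 fell, with a median of -0.24. H3-3A, which encodes the replacement histone H3.3, fell 2.31-fold on a probe set of the _s_at class. The centromeric histone gene CENPA fell 1.69-fold, the linker histone gene H1-10 1.51-fold, and H2AX and H2AZ2 1.18-fold each. At 4 h and at 6 h 0 genes of these 3 lists changed in limma (0.340% and 0.135% of all tested genes did). With an unadjusted p below 0.05 there were 5 of 36 processing, 5 of 24 chaperone and 1 of 9 variant genes at 4 h (9.60% of all tested genes), and 5, 3 and 1 of them at 6 h (7.15%). At 16 h the variant histone genes that passed were thus all lower, while of the tested members 9 were higher and 2 were lower.

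**Figure D4:**
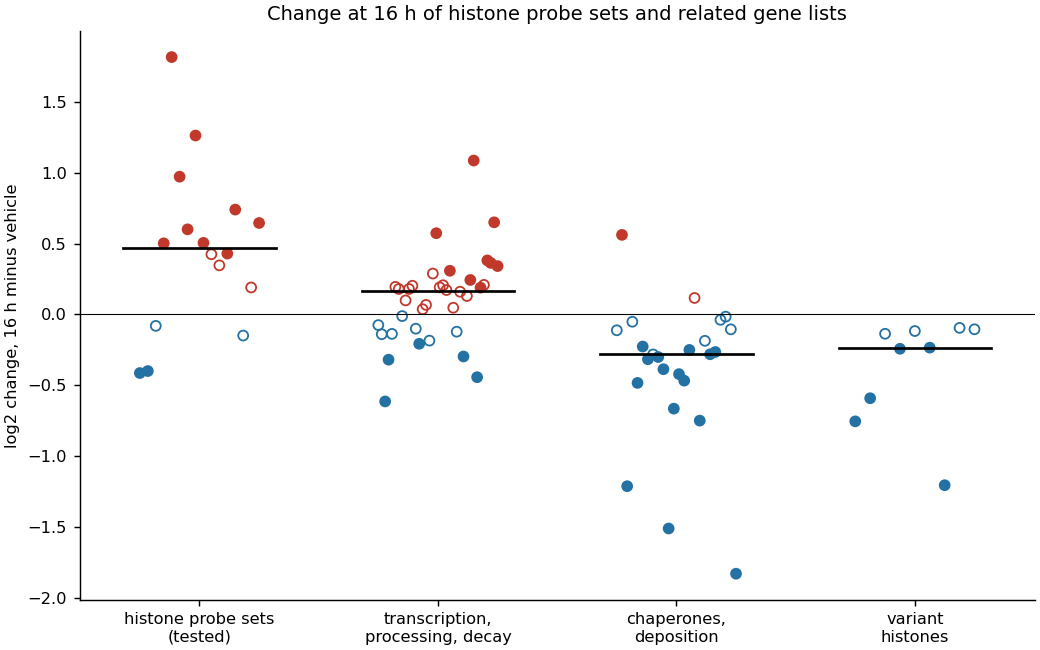
Log2 change at 16 h from vehicle, 1 point per tested histone probe set or listed gene, red above 0 and blue below it, filled where the adjusted p is below 0.05, with a bar at each median. The medians are 0.47 for the histone probe sets, 0.17 for transcription, processing and decay, -0.28 for chaperones and -0.24 for variant histones.

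Several array-wide measures moved at 16 h together with these values. The signal of the 3′ ACTB control probe set minus that of the 5′ one, a log2 difference that grows when RNA is shortened or copied incompletely, was 4.09 ± 0.09 at 16 h and 2.80 ± 0.07 with vehicle (SD, n = 3 each, exact two-sided permutation p = 0.1, the smallest that 3 against 3 allows). The 18S ribosomal RNA controls, which carry no poly(A) tail, gave 11.06 ± 0.10 at 16 h and 9.62 ± 0.29 with vehicle, and 28S gave 9.34 and 8.17. The same 3′ minus 5′ difference for GAPDH was -0.43 at 16 h and -0.46 with vehicle. At 4 h and 6 h the 18S signal was lower than with vehicle, by -0.64 and -0.98. The line's own markers HOXB13, FOXA1, KLK3, KRT8, KRT18 and EPCAM were above the control level on all 12 arrays, and their summed linear signal was 5160 to 5448 at 16 h and 4941 to 5147 with vehicle. At 16 h HOXB13 fell 2.09-fold, FOXA1 fell 1.19-fold and KRT18 rose 1.15-fold, and the other 3 did not pass. Of 5 fibroblast genes 4 were tested: COL1A1 and LUM rose by 2.05 and 1.25, and DCN and COL3A1 fell by 0.58 and 0.37. Their summed linear signal was 95.8 to 130 at 16 h and 46.5 to 56.8 with vehicle, with COL1A2 at or below the control level on every array. None of 4 leukocyte genes was bright enough to test. The part of the RNA controls and of these markers in the histone changes was not tested.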

How the data were processed

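The authors deposited log2 signals for 54675 probe sets on each of 12 arrays, running from -0.49 to 13.77. GCRMA, a method for background correction, normalisation between arrays and summary of probes, is named without a version per the submitters' processing notes. Such normalisation hides a change shared by most genes. Total RNA was column-extracted and copied with a 3′ in vitro transcription kit, per the labels' protocols. The number of arrays limits the precision.

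Gene symbols came from the platform annotation, brought up to date through RefSeq. Of the 54613 non-control probe sets, 41091 had 1 symbol, 1801 several, and 11721 were not listed. The histone H1-10 was read as outside the member rule and stands in the variant list. Members and lists were chosen with earlier results of these data known.

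One model with the 4 groups was fitted with limma 3.58.1 in R 4.3.3 to the 27306 probe sets with a mean of at least 2.11 (8 residual and 3.75 prior degrees of freedom), and all 6 comparisons were adjusted over those probe sets by Benjamini-Hochberg. Named members were those changed at 16 h without overlap of arrays, the 3 with the highest mean, and the probe sets of H2BC12, H2BC21, H2BC5, H2AC6, H1-2 and H4C8. The other tested members are given so that all 16 are accounted for. The alternatives were other normalisations, filters, probe set choices, variance models, a replicate block and each array left out. The fit was also run on simulated data with few altered probe sets and independent noise. At 16 h 39.7% of tested probe sets changed, so that run does not show how the fit behaves on these arrays. H3C4, which the naming rule lists, has no probe set of its own. It was read only on probe sets shared with other genes, among them 206110_at.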

Additional observations from a re-analysis of the deposited data

Results flagged for a closer look

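Members whose difference from vehicle depended on the time of treatment were identified by the direct contrast of one time with another in the limma fit (adjusted p below 0.05). Between 16 h and 6 h, H2AC6 was higher at 16 h by 1.86, H2BC21 by 1.29, H2BC12 by 0.89, H2BC9 by 0.60, H2BC5 (209911_x_at) by 0.57, H2BC12L by 0.36 and H2AC25 by 0.36 on the log2 scale, and H2AC14 differed by -0.32. Between 16 h and 4 h, H2AC6 was higher at 16 h by 1.99, H2BC21 by 1.39, H2BC12 by 0.92, H2BC12L by 0.90, H2BC5 (209911_x_at) by 0.76, H3C6 by 0.70, H2BC6 by 0.62, H4C8 (232035_at) by 0.49, H2AC25 by 0.47 and H2BC9 by 0.38, and H2AC14 differed by -0.31. H1-2, which was below vehicle at all 3 times, passed neither contrast. These contrasts share their 16 h arrays, so the pair of lists is not independent. No group of 3 arrays was examined for single outlying arrays.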

How the results depend on the processing

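Of the 16 tested members, 11 changed at 16 h against vehicle (39.7% of all tested probe sets did). That count was 8 to 13 when each array was left out in turn, and 0 under every alternative run at 4 h, at 6 h and between them. It was 5 with the filter at the 75th percentile, which tested 5 members, and 5 outside the _s_at and _x_at classes, which tested 7. Against 6 h, 8 members changed at 16 h, with 6 to 9 on leaving out an array, 5 at the 75th percentile and 2 outside those classes. Against 4 h, 11 changed, with 9 to 12, 5 and 4. The drop in both settings includes the loss of tested members. The share of all probe sets called was not computed under the alternatives, so these counts have no such share beside them. Deviations from the group means correlated at -0.01 to 0.22 between same-numbered arrays (median 0.07, 7 of 18 pairs above 0.1) and at -0.18 to 0.10 between others (median -0.07, 2 of 36 above 0.1), and 4 of 12 arrays correlated best with their own number in every other group. The numbers were therefore not taken as pairing, although the own number was the best match in 21 of 36 array-by-group cases. Pairs among the replicate 1 arrays all correlated at 0.12 to 0.22, so the data hint at some variation shared by those arrays. With the replicate block 12 members changed at 16 h against vehicle, 8 against 6 h, 12 against 4 h, and 0 at 4 h or 6 h. The ACTB difference at 16 h, 1.28, was 1.40 after quantile normalisation.

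H2AC6, H2BC21, H2BC12, H2BC12L, H2AC25, H2AC14 and H4C8 on 232035_at kept their call in all 18 alternatives run for single members. The other filters and probe set choices were run for the counts only and are not among the 18. H2BC9 lost it in 2, and H2BC5 (209911_x_at), H1-2 and H3C6 in 5 each, while H2BC5 on 222067_x_at gained one in 7 (lowest adjusted p = 0.0284) and H2BC6 in 1 (0.0432). H2AC17, never called, ran from -0.22 to 0.059 on leaving out an array and turned sign without vehicle replicate 3 (0.059) and without 16 h replicate 1 (0.029). Signal over background limited the reading, with 35 of 51 probe sets too dim to test.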
